A study of Mus musculus with 6 samples.

Results

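Type I interferon-stimulated genes are a set of 36 genes, of the 34187 gene features measured, that were listed by name. The list was made with earlier results of these data known, and all 36 genes were found among the features. Type I interferons bind the receptor pair IFNAR1 and IFNAR2, and the kinases bound to it then activate the transcription complex ISGF3, of which IRF9 is a part. ISGF3 binds an interferon-stimulated response element in the promoters of its targets, many of which sense viral nucleic acid or block viral replication. In tumors the same genes are known to respond to interferon made by myeloid cells after nucleic acid sensing, and several of them also respond to interferon gamma.

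The genes were followed in subcutaneous 6694c2vTRP1 tumors, a pancreatic adenocarcinoma line of the KPC genotype, grown in male and female C57BL/6 mice. Groups of 5 mice received PBS, mono-IL10 (a monomeric interleukin-10) at 26 µg per mouse, or IL10/2-Trikine (an interleukin-10 scaffold that also engages the interleukin-2 receptor beta chain) at 30.6 µg per mouse, in 2 doses from day 8, and tumors were taken on day 14. The CD45+ cells of each mouse were captured on beads, labeled with that mouse's hashtag and pooled by treatment into 1 library, so treatment and library cannot be told apart, and both treated groups share the PBS mice. Droplet 5' sequencing gave 364814102 to 515236552 gene UMIs (unique molecule counts) per library, and 408 to 700 cell barcodes were shared by a pair of libraries, at most 1.58% of the smaller one.

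Levels are given as CPM, the UMIs of a gene for each 1000000 UMIs of all cells of 1 class in 1 mouse, with the mouse as the replicate and values given in the order of mice 1 to 5. The count of a 5' molecule does not grow with transcript length, so levels of different genes were compared directly. NK cells (9 to 69 a mouse) and T cells (17 to 160) were those in the clusters that the authors annotated, where a hashtag gave the mouse. Macrophage-like cells (405 to 2223 a mouse), dendritic-like cells (10 to 75) and tumor epithelial-like cells (646 to 3195, here tumor-like cells) came from clusters named by fixed markers, and 27.5% to 32.8% of the cells in a library stayed in clusters with no name. Although the labels describe CD45+ infiltrating cells, tumor-like cells were 24% of all assigned cells with PBS, 27.9% with mono-IL10 and 43.1% with IL10/2-Trikine. Epithelial markers summed to 3987 to 5060 CPM in them, and macrophage markers to 9174 to 10735 in macrophage-like cells. The sum of NK markers was 2488, 3588 and 6743 in NK cells and 722, 1186 and 2611 in T cells with PBS, mono-IL10 and IL10/2-Trikine. In T cells the T markers summed to 2933, 3837 and 1911, below the NK markers with IL10/2-Trikine, and macrophage markers to 730 to 794. The part of these markers in the results was not tested. One NK sample, mono-IL10 mouse 3 with 9 cells, was left out, so that group has n = 4 for NK cells. A lower level in a class cannot be told apart from a smaller share of the cells that express the gene.

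The promoters of Isg15, Bst2, Ifit1, Ifit3 and Ifit3b are shown as examples in which the letters of the response element recur, and of these Isg15 and Ifit3 were called in no edgeR comparison. Windows of 300 bases (250 before to 50 after a RefSeq start site, build GRCm38.p6, which is not the GRCm39 build of the files) were found for 28 of the 36 genes. A core of the element, GAAANNGAAA or its reverse complement TTTCNNTTTC, was in the window of 17 of these 28 genes (60.7%) and in 1079 of 27025 genes overall (3.99%). It was not in the windows of Ifit2, Irf7, Irf9, Isg20, Cmpk2, Ifi44, Oasl1, Oasl2 and Xaf1, which were called in a comparison described later, nor in those of Herc6 and Ifi35. The 250 bases before the start site are printed 5′ to 3′ on the strand of the gene, with the core in capitals.
Isg15, chr4:156200819-156201068, minus strand: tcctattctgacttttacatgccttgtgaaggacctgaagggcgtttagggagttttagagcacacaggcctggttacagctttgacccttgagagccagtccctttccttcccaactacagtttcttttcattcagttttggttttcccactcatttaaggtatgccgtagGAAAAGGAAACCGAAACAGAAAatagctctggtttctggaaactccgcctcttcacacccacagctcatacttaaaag
Ifit1, chr19:34640639-34640888, plus strand: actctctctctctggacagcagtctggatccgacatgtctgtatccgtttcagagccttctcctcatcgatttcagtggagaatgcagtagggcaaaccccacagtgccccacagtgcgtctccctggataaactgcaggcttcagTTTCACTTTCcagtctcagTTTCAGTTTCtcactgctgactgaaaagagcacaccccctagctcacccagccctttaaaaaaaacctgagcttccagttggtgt
Ifit3, chr19:34583279-34583528, plus strand: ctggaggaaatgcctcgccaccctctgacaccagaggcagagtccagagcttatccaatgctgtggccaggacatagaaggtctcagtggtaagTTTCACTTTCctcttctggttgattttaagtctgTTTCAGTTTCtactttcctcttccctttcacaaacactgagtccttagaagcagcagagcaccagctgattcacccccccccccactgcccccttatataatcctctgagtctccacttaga
Ifit3b, chr19:34607707-34607956, plus strand: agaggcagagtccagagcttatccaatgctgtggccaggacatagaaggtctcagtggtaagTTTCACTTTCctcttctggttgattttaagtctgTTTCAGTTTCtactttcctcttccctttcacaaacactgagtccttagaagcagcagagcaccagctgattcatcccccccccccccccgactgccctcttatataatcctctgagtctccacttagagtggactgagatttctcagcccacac
Bst2, chr8:71537473-71537722, minus strand: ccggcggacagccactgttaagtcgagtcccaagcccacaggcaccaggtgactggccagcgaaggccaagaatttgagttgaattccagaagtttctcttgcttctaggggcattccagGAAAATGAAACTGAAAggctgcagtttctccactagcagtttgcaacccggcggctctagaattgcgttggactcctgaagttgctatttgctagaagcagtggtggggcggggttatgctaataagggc

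Isg15 holds 3 overlapping copies that begin 78, 72 and 66 bases before the start site. The windows of Ifit1, Ifit3, Ifit3b and Bst2 hold 2 copies each, and the copies of Ifit3 and Ifit3b stand in the same flanking letters. Ifit3 and Ifit3b are near-identical neighbors, as are Oas1a, Trim30a, Slfn8 and Phf11b with their relatives, so reads could have been split between copies and their separate values are uncertain.

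In PBS mice, 36 of the 36 genes reached 1 CPM in macrophage-like cells and in T cells, 34 in dendritic-like cells, 33 in tumor-like cells and 25 in NK cells. The samples held 33913 to 128696 UMIs in NK cells, 105757 to 273694 in T cells and 24893112 to 41354637 in tumor-like cells. In NK and T cells 1 UMI in 1 mouse could thus bring the mean to 1 CPM, so these counts do not rank the classes. Bst2, which encodes tetherin, a membrane anchor that holds budding virus on the cell surface, had the highest level of the set in tumor-like cells (271 ± 31.9 CPM; SD, n = 5), in macrophage-like cells (263 ± 31.9, n = 5) and in NK cells (80.8 ± 49.1, n = 5). Ifi205, an interferon-inducible PYHIN-family gene, led in dendritic-like cells (267 ± 75.9 CPM, n = 5), and Isg15, a ubiquitin-like modifier, led in T cells (120 ± 75.2, n = 5). The mean level was highest in T cells for 17 genes, in macrophage-like cells for 9, in dendritic-like cells for 5, in tumor-like cells for 3 (Bst2, Eif2ak2 and Isg20) and in NK cells for 2. Part of the T cell ranking rested on very few cells: over the 3 libraries, the 864 T cells outside a 12-cell cluster described later had 0.58 CPM of Ifit3, 0.29 of Ifit3b, 0.29 of Mx2, 0.58 of Ifi44 and 2.32 of Usp18, all genes counted among the 17. Isg20, an exonuclease that degrades viral RNA, stood at 65.8 to 77.4 CPM in the tumor-like cells of the 5 PBS mice and at 4.0 to 6.97 CPM in their macrophage-like cells.

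**Figure D1:**
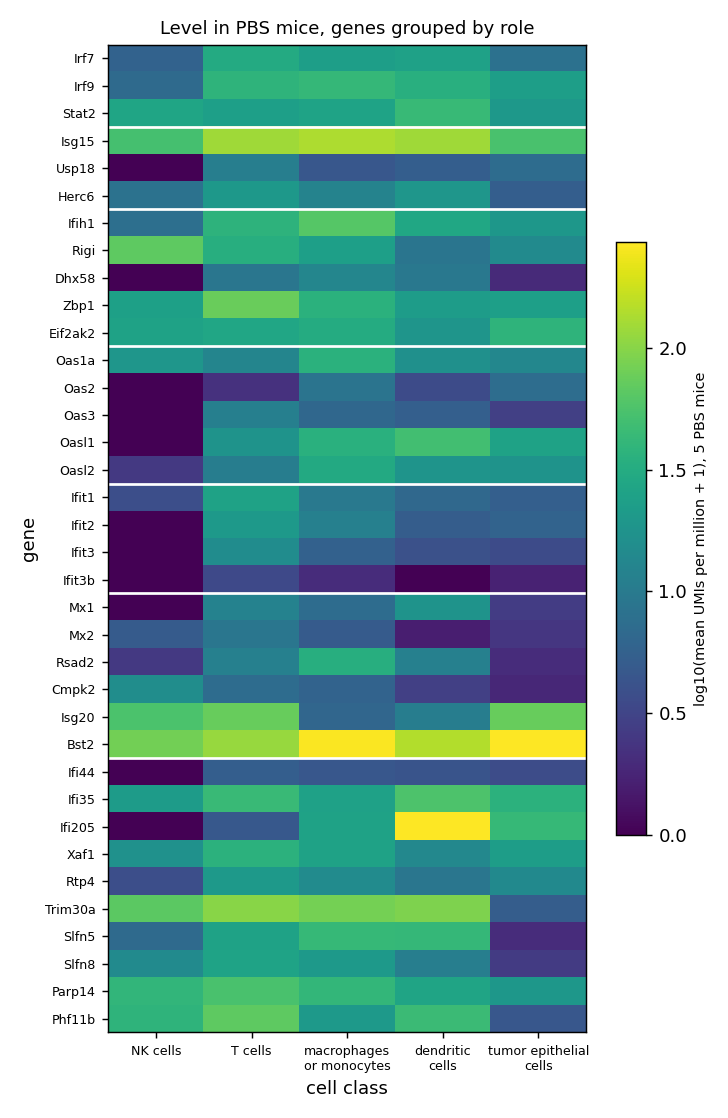
Mean level of the 36 genes in the 5 PBS mice, as log10 of (CPM + 1), in 5 cell classes (columns), with genes (rows) grouped by role and white lines between roles. Bst2 was the brightest gene in macrophages or monocytes (263 CPM) and in tumor epithelial cells (271), and the IFIT family was darkest in NK cells.

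The summed level of the 36 genes overlapped between treatments in every class. In macrophage-like cells it was 1229, 1056, 1195, 1172 and 1057 CPM in PBS mice, 946, 1133, 923, 813 and 780 in mono-IL10 mice, and 1074, 886, 1145, 1376 and 1010 in IL10/2-Trikine mice. In tumor-like cells the sums were 816, 710, 685, 878 and 769 CPM with PBS, 909, 752, 623, 697 and 837 with mono-IL10, and 896, 746, 825, 817 and 787 with IL10/2-Trikine. The 3 groups overlapped in both classes. Bst2 alone accounted for much of the tumor sum, which without it ran from 441 to 564 CPM in PBS mice.

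NK cells gave lower sums, of 521 to 737 CPM in PBS mice, 521 to 836 in mono-IL10 mice and 389 to 583 in IL10/2-Trikine mice. T cells ran from 745 to 1591 CPM with PBS, from 780 to 893 with mono-IL10 and from 553 to 812 with IL10/2-Trikine, and 4 of the 5 PBS mice stood above every IL10/2-Trikine mouse. Dendritic-like cells ranged from 1040 to 1377 CPM with PBS, from 750 to 1591 with mono-IL10 and from 444 to 1359 with IL10/2-Trikine, so the groups overlapped throughout.

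**Figure D2:**
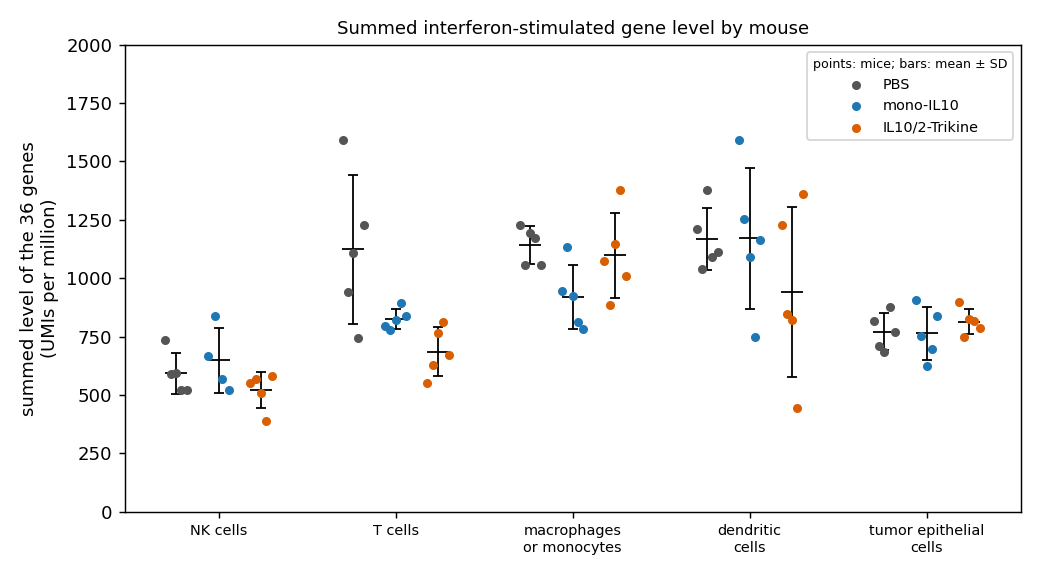
Summed level of the 36 genes (CPM, axis from 0) for each mouse (points) by cell class and treatment, with the mean and SD as bars. The groups overlapped in every class, and the PBS T cells spanned the widest range of the T groups, 745 to 1591.

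Of the tests that follow, edgeR's quasi-likelihood test was fitted in each class to all genes that passed a filter on low counts, with Benjamini-Hochberg adjustment over all of them and a call at an adjusted p under 0.05. Fold changes are log2 values with their standard error (SE). A gene low in every group did not pass the filter, and a gene could pass through 1 group alone.

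In tumor-like cells, several genes of the IFIT, OAS and Mx families stood higher with IL10/2-Trikine than with mono-IL10, while Ifit3, Oasl1 and Oasl2 did not pass. All 36 genes were tested there. For IL10/2-Trikine against mono-IL10, 15 genes rose and 2 fell, beside 15.9% of the 15108 genes tested that rose and 16.8% that fell. The median log2 fold change of the 36 genes was 0.42, against 0.02 over all genes. The 15 genes were the factors Irf7 and Irf9, sensors Rigi and Dhx58, Oas1a, Oas2, Oas3, Ifit1, Ifit2, Ifit3b, Mx1, Mx2, Cmpk2, Ifi44 and Slfn5. None of the feedback and conjugation genes Isg15, Usp18 and Herc6 was among them. The 2 that fell were Isg20 and Ifi205. Without mono-IL10 mouse 3 the 17 calls became 11.

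Ifit1, whose product binds viral RNA that lacks a host cap, had the largest fitted log2 fold change of the 36 genes between the treatments. Its level in tumor-like cells was 5.71, 3.35, 2.76, 4.74 and 5.80 CPM in PBS mice, 4.24, 6.50, 2.36, 1.82 and 4.30 in mono-IL10 mice and 10.8, 7.46, 20.4, 18.1 and 9.36 in IL10/2-Trikine mice. Every IL10/2-Trikine mouse exceeded every mouse of both other groups. The log2 fold change was 1.72 ± 0.37 (SE) against mono-IL10 (edgeR adjusted p = 0.00304) and 1.61 ± 0.36 against PBS (edgeR adjusted p = 0.00712).

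Mx1, a gene of the guanosine triphosphatase class, was at 1.62, 1.11, 1.11, 2.33 and 2.23 CPM with PBS, at 1.08, 1.13, 1.23, 1.17 and 1.96 with mono-IL10, and at 3.14, 2.15, 3.80, 2.71 and 2.04 with IL10/2-Trikine. All IL10/2-Trikine mice stood above all mono-IL10 mice, while 3 of them stood above every PBS mouse. Mx1 rose by 0.95 ± 0.24 (SE) on the log2 scale against mono-IL10 (edgeR adjusted p = 0.00486) and by 0.76 ± 0.23 against PBS (edgeR adjusted p = 0.0276). The call against PBS was lost in tumor-like cells with no UMI of the macrophage markers (log2 fold change 0.65, edgeR adjusted p = 0.0832).

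The OAS enzymes make 2′-5′ oligoadenylates that switch on RNase L. Oas2 was at 6.16, 5.53, 6.19, 7.59 and 6.73 CPM with PBS, at 5.58, 4.73, 3.62, 5.49 and 4.43 with mono-IL10, and at 8.19, 6.67, 7.33, 9.43 and 6.86 with IL10/2-Trikine. The IL10/2-Trikine mice did not overlap the mono-IL10 mice, with a log2 fold change of 0.62 ± 0.12 (SE; edgeR adjusted p = 0.000711). Oas1a (10.3 ± 1.68 CPM with mono-IL10 and 15 ± 2.28 with IL10/2-Trikine, SD, n = 5 each) and Oas3 (1.44 ± 0.622 and 2.95 ± 0.664) also rose, by log2 fold changes of 0.45 and 0.92, and for Oas3 the groups overlapped.

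Irf9, the DNA-binding subunit of ISGF3, had levels of 24.9, 20.4, 18.6, 26.4 and 20.9 CPM with PBS, 19.6, 19.0, 16.6, 18.3 and 20.1 with mono-IL10 and 29.6, 24.3, 25.5, 25.4 and 25 with IL10/2-Trikine. The last group stood above all mono-IL10 mice and overlapped PBS. Its change was 0.40 ± 0.08 (SE) against mono-IL10 (edgeR adjusted p = 0.00144) and 0.25 ± 0.08 against PBS (edgeR adjusted p = 0.0369). Irf7, the factor that amplifies interferon alpha production, was at 6.32 ± 1.27 CPM with mono-IL10 and 8.48 ± 0.666 with IL10/2-Trikine (SD, n = 5 each), a log2 fold change of 0.35. Rigi, a sensor of viral RNA listed in the files as Ddx58, was at 11.4 ± 1.58 and 14.8 ± 1.13 CPM in the same groups, a log2 fold change of 0.30.

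Isg20 and Ifi205 moved the other way. Isg20 was at 69.8, 76.2, 65.8, 76.6 and 77.4 CPM with PBS, at 85.6, 79.5, 81.2, 78.7 and 87.0 with mono-IL10, and at 64.9, 63.6, 69.8, 67.6 and 63.8 with IL10/2-Trikine. The mono-IL10 mice stood above both other groups without overlap. Isg20 rose by 0.27 ± 0.05 (SE) on the log2 scale with mono-IL10 against PBS (edgeR adjusted p = 0.00449), and it fell by 0.39 ± 0.05 with IL10/2-Trikine against mono-IL10 (edgeR adjusted p = 1.73e-05). Ifi205 went from 41.6 ± 4.38 CPM with PBS to 57.3 ± 11.4 with mono-IL10 and 29.7 ± 5.24 with IL10/2-Trikine (SD, n = 5 each), and the 3 groups did not overlap. All 3 of its differences passed, with log2 fold changes of 0.56 for mono-IL10 against PBS, -0.44 for IL10/2-Trikine against PBS and -1.0 between the treatments.

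**Figure D3:**
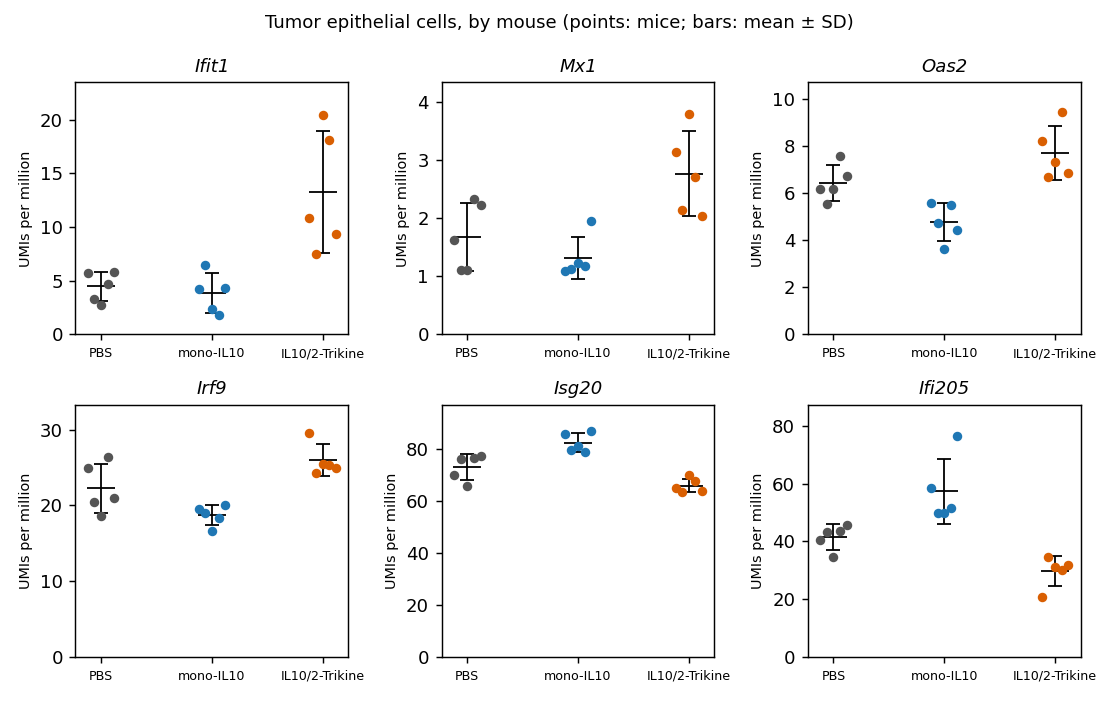
Level of 6 genes in tumor epithelial cells (CPM, axes from 0) for each mouse (points), with the mean and SD of each treatment as bars. Ifit1 was at 7.46 to 20.4 with IL10/2-Trikine and at 1.82 to 6.50 with mono-IL10, while Isg20 and Ifi205 were highest with mono-IL10.

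Against PBS, fewer of the genes passed in tumor-like cells. With IL10/2-Trikine, 5 rose (Irf9, Ifit1, Ifit3b, Mx1 and Trim30a) and 2 fell (Oasl1 and Ifi205), beside 10% of all genes that rose and 12.1% that fell. These 7 calls became 3 without PBS mouse 2 or IL10/2-Trikine mouse 3 or 4, and 4 without IL10/2-Trikine mouse 1. With mono-IL10, 2 rose (Isg20 and Ifi205) and 1 fell (Slfn5), beside 3.29% and 2.03% of all genes. The median log2 fold change of the 36 genes was 0.29 for IL10/2-Trikine and -0.10 for mono-IL10.

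Other genes named in every class did not pass in tumor-like cells. Isg15 was at 53.0 ± 10.5 CPM with PBS, 44.6 ± 9.97 with mono-IL10 and 65.0 ± 11.1 with IL10/2-Trikine (SD, n = 5 each; edgeR adjusted p = 0.0541 between the treatments). Ifit3 was at 2.63 ± 1.43, 2.25 ± 0.923 and 4.77 ± 2.45 CPM, Stat2 at 19.0 ± 2.37, 16.7 ± 2.69 and 19.5 ± 1.84, Zbp1, a sensor of Z-form nucleic acid that can trigger cell death, at 22.8 ± 4.95, 21.2 ± 8.58 and 27.0 ± 4.29, and Bst2 at 271 ± 31.9, 285 ± 49.1 and 274 ± 24.3.

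The tumor-like cells differed between libraries in more than these genes. Their median depth was 25394.5 UMIs a cell with PBS, 34880 with mono-IL10 and 9912.5 with IL10/2-Trikine, and a cluster led by Tff2 held 1463 of 11224 cells with IL10/2-Trikine, 208 of 5550 with PBS and 192 of 4975 with mono-IL10. The part of these differences in the results was not tested. The summed level of 10 macrophage markers in them was 60.2 to 123 CPM over the PBS mice, 38.0 to 66.0 over the mono-IL10 mice and 56.7 to 329 over the IL10/2-Trikine mice, beside sums of 9174 to 10735 CPM in macrophage-like cells. No UMI of these markers was held by 3304, 3011 and 8272 tumor-like cells with PBS, mono-IL10 and IL10/2-Trikine (59.5%, 60.5% and 73.7%). This cut-off was not adjusted for the differing depth. The shares of all genes that rose and fell are not given for the fit to these cells. With all tumor-like cells they were 15.9% and 16.8% between the treatments. In the cells with no such UMI, Ifit1 kept a log2 fold change of 1.85 for IL10/2-Trikine against mono-IL10 (edgeR adjusted p = 0.00711). There, 12 of the 17 genes called between the treatments were called again. The others were Irf7 (log2 fold change 0.42, edgeR adjusted p = 0.062), Ifit2 (0.33, edgeR adjusted p = 0.0703), Dhx58 (0.48), Cmpk2 (0.66) and Slfn5, a Schlafen-family regulator whose counts there were under the filter. Slfn5 fell from 1.04 ± 0.208 CPM with PBS to 0.401 ± 0.145 with mono-IL10 over all tumor-like cells (SD, n = 5 each), and in the cells without macrophage markers it was at 0.316, 0.173 and 0.508 CPM with PBS, mono-IL10 and IL10/2-Trikine. There, every IL10/2-Trikine mouse stood above every mono-IL10 mouse, with no test. Neutrophil markers summed to 95.3, 60.3 and 139 CPM in the tumor-like cells of the 3 libraries, and NK markers to 3.5, 4.49 and 20 CPM, and their part in the results was not tested.

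In macrophage-like cells, sensors and OAS genes were among 9 genes that fell with mono-IL10. Of the 36 genes, 35 passed the filter. With mono-IL10 against PBS, 0 rose and 9 fell, beside 13.1% of the 12274 genes tested that rose and 14.9% that fell: Irf9, Rigi, Eif2ak2, Oas1a, Oasl1, Oasl2, Bst2, Xaf1 and Rtp4. The median log2 fold change of the 35 genes was -0.21, against -0.02 over all genes. The IFIT genes were not among them, and Ifit3 was at 4.64 ± 2.29 CPM with PBS and 4.92 ± 3.37 with mono-IL10 (SD, n = 5 each).

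Eif2ak2 encodes the kinase PKR, which halts translation when it binds double-stranded RNA. It was at 31.4, 29.2, 32.4, 26.3 and 31.1 CPM with PBS, at 22.3, 22.9, 20.4, 23.1 and 23.6 with mono-IL10, and at 26.0, 26.0, 30.4, 31.6 and 24.5 with IL10/2-Trikine. Every mono-IL10 mouse stood below every other mouse. Eif2ak2 fell by 0.35 ± 0.08 (SE) on the log2 scale with mono-IL10 against PBS (edgeR adjusted p = 0.00145).

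Rigi was at 23.3, 19.7, 27.1, 17.9 and 24.1 CPM with PBS, at 13.2, 17.8, 15.6, 13.8 and 12.9 with mono-IL10, and at 24.8, 21.7, 28.5, 31.1 and 18.7 with IL10/2-Trikine. The mono-IL10 mice again lay below all the others. Its log2 fold change was -0.53 ± 0.12 (SE) for mono-IL10 against PBS (edgeR adjusted p = 0.00184) and 0.65 ± 0.14 for IL10/2-Trikine against mono-IL10 (edgeR adjusted p = 0.00321).

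The other calls between mono-IL10 and PBS ran from -0.27 to -0.84 on the log2 scale. Oasl1, an OAS-like gene that restrains Irf7 translation, went from 33.9 ± 4.91 to 18 ± 7.14 CPM (SD, n = 5 each), the steepest fall at -0.84. Oasl2 went from 28.8 ± 3.63 to 20 ± 3.99 CPM, Oas1a from 34.6 ± 4.51 to 26.3 ± 3.52, Xaf1, which promotes apoptosis, from 24.2 ± 3.17 to 17.9 ± 2.22, and Rtp4 from 14.0 ± 2.79 to 8.34 ± 2.35. Bst2 was at 312, 276, 257, 237 and 235 CPM with PBS, at 232, 218, 206, 193 and 185 with mono-IL10, and at 210, 211, 221, 215 and 231 with IL10/2-Trikine. Both treated groups lay wholly below PBS, and the fall was 0.27 ± 0.08 (SE) on the log2 scale with mono-IL10 (edgeR adjusted p = 0.0124) and 0.28 ± 0.08 with IL10/2-Trikine (edgeR adjusted p = 0.0178).

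With IL10/2-Trikine against PBS, 0 genes rose and 2 fell in macrophage-like cells (Bst2, and Ifi205 from 24.4 ± 6.75 to 13.1 ± 4.50 CPM), beside 9.15% and 8.97% of all genes. These 2 calls became 0 without PBS mouse 2, 1 without any one of PBS mice 1, 3 and 4 or IL10/2-Trikine mice 1 and 3, and 4 without IL10/2-Trikine mouse 4 or 5. Between the treatments, 3 rose with IL10/2-Trikine (Rigi, Trim30a and Slfn5) and 0 fell, beside 5.77% and 6.22% of all genes. Trim30a, a tripartite motif gene that restrains Toll-like receptor signals, was at 71.5 ± 11.2 CPM with mono-IL10 and 103 ± 19.0 with IL10/2-Trikine, and Slfn5 at 31.3 ± 7.03 and 54.6 ± 11.5 (SD, n = 5 each). Isg15 was at 135 ± 27.1 CPM with PBS, 90.0 ± 22.8 with mono-IL10 and 88.6 ± 36.1 with IL10/2-Trikine, and Irf7 at 22.3 ± 5.11, 16.5 ± 5.26 and 19.5 ± 4.05, and neither passed in any comparison. Stat2 (22.5 to 25.4 CPM in the group means) and Zbp1 (33.5 to 39.4 CPM) passed in no comparison either.

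The macrophage-like class was not made of the same clusters in each library. A cluster led by Nrg1, Pf4 and Fabp5 held 21.4% of it with mono-IL10, one led by Pf4, Arg1 and Thbs1 held 22.5% with IL10/2-Trikine, and the first cluster of the PBS cells, led by Hspa1a, Ccl8 and Ccl7, held 11%. The median depth was 5034.5, 6185 and 2799 UMIs a cell with PBS, mono-IL10 and IL10/2-Trikine, and neutrophil markers summed to 607, 383 and 634 CPM, T markers to 28, 17.5 and 53.7 CPM and NK markers to 15.8, 8.52 and 40.1 CPM. The part of these differences in the results was not tested.

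**Figure D4:**
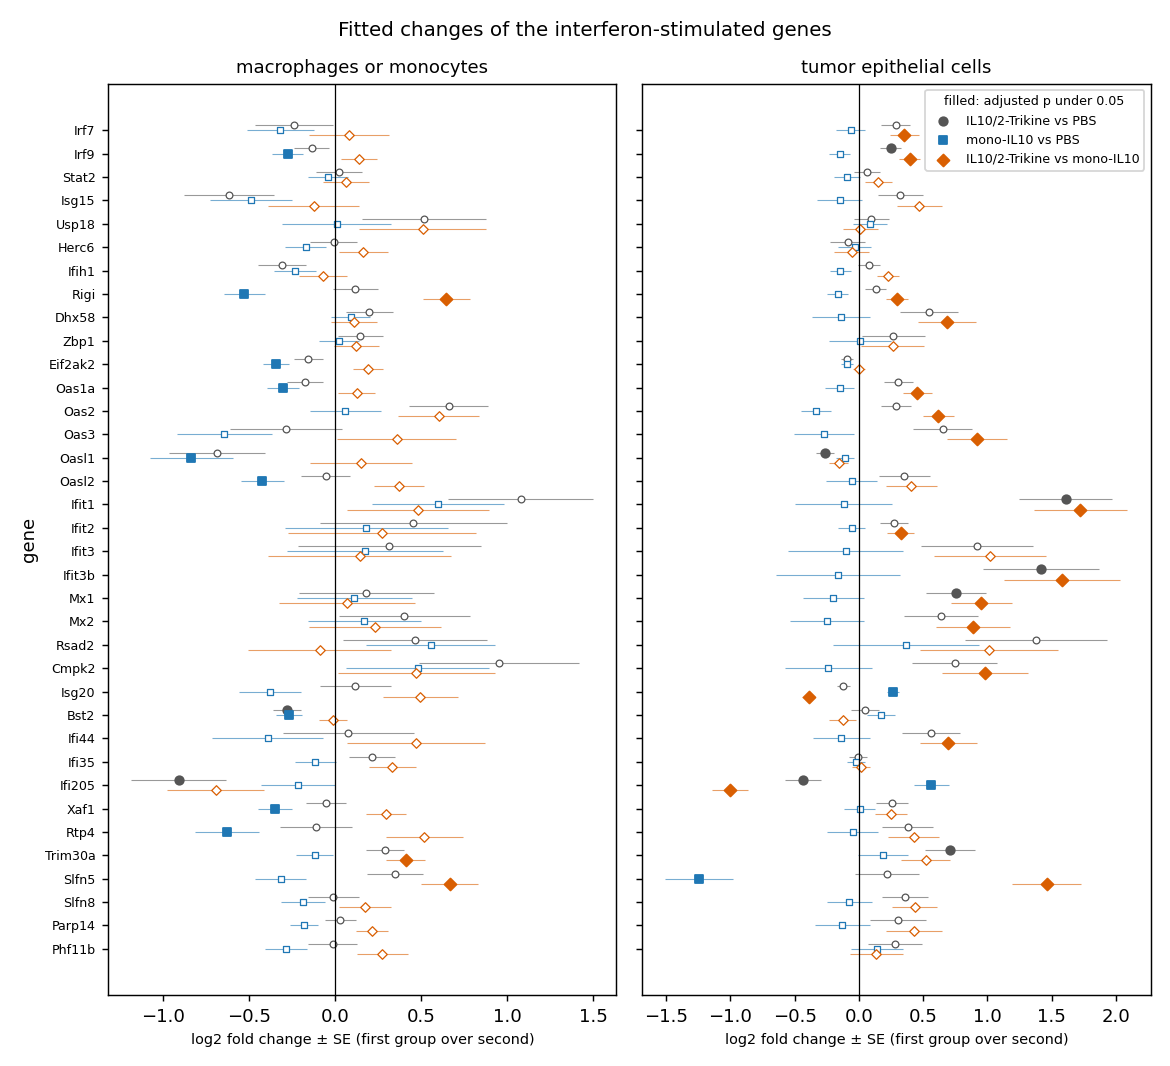
Fitted log2 fold change with its SE for the 36 genes (rows, grouped by role) in macrophages or monocytes and in tumor epithelial cells, for 3 comparisons, with filled points where the edgeR adjusted p is under 0.05. In tumor epithelial cells 15 points for IL10/2-Trikine against mono-IL10 are filled to the right of 0, and in macrophages or monocytes 9 points for mono-IL10 against PBS are filled to the left.

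A test of the difference between the 2 classes in the same mice (limma on each mouse's difference in log2 CPM, 35 genes tested) found few genes whose response differed. For IL10/2-Trikine against PBS the response of Isg15 was 0.99 higher on the log2 scale in tumor-like than in macrophage-like cells (limma adjusted p = 0.0470), the 1 gene called, beside 5.11% of 11615 genes called in that direction and 5.86% in the other. For mono-IL10 against PBS, the tumor-like response was higher for Oasl1 (by 0.79), Isg20 (0.65) and Bst2 (0.42) and lower for Slfn5 (-0.88), beside 8.09% and 7.86% of all genes. For IL10/2-Trikine against mono-IL10 it was higher for Rsad2, an antiviral radical enzyme also named viperin (by 1.32), and lower for Isg20 (-0.90, limma adjusted p = 0.00443), beside 8.52% and 9.18%. In each comparison the counts among the 35 genes were near or below the shares over all genes. For the other genes the test did not pass, which does not show that the classes responded alike.

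In NK cells, 2 of the 36 genes passed the count filter, Bst2 and Trim30a. For IL10/2-Trikine against PBS, neither was called (0 at an unadjusted edgeR p of 0.05 and 0 by DESeq2, here and for mono-IL10 against PBS), beside 2.63% of 2355 genes that rose and 2.46% that fell, and for mono-IL10 against PBS neither was called beside 0.34% and 0.0425%. Between the treatments, Bst2 fell (beside 2.08% of genes that fell and 1.36% that rose). It was at 108, 124, 95 and 81.8 CPM in the 4 mono-IL10 mice, at 68.9, 33.2, 30, 59.9 and 54.0 in the IL10/2-Trikine mice, and at 88.5, 78.2, 155, 62.2 and 20.1 in the PBS mice. The treated groups did not overlap each other, and both overlapped PBS. The log2 fold change was -1.12 ± 0.32 (SE; edgeR adjusted p = 0.0319), and it rested on 30 UMIs with IL10/2-Trikine and 110 with mono-IL10.

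That NK call was lost without the cycling cluster, with DESeq2, and without any one of mono-IL10 mice 1, 2 and 4 or IL10/2-Trikine mice 2, 3 and 5, each of which left 0 calls. The difference between its change in NK cells and in macrophage-like cells did not pass (limma adjusted p = 0.176). Among genes under the filter, Isg15 was at 50.7 ± 45.1 CPM with PBS, 77.4 ± 10.9 with mono-IL10 and 22.1 ± 17.7 with IL10/2-Trikine, from 19, 84 and 15 UMIs. Irf7 was at 4.85 ± 7.06, 15.6 ± 5.1 and 22.2 ± 14.1 CPM, Stat2 at 26.2 ± 10.1, 13.3 ± 5.28 and 15.8 ± 24.2, and Zbp1 at 23.2 ± 12.5, 42.8 ± 17.9 and 16.2 ± 13.7 (SD, n = 5, 4 and 5). Ifit3 gave 0, 1 and 0 UMIs in the 3 groups, so a difference in it was not detectable at this depth. Macrophage markers summed to 545 to 781 CPM in the NK cells of the 3 libraries, and their part in the values was not tested.

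In T cells, 5 of the 36 genes passed the filter (Isg15, Zbp1, Isg20, Bst2 and Trim30a), and 0 were called in any comparison. All genes called as higher and lower came to 5.11% and 4.08% of 3189 for IL10/2-Trikine against PBS, 1.63% and 0.941% for mono-IL10 against PBS, and 6.11% and 6.71% between the treatments. Under an unadjusted p of 0.05 with edgeR, 2 genes were lower with IL10/2-Trikine than with PBS and 0 passed in the other comparisons, and the count by DESeq2 was 0 in all 3. The share of all genes under that unadjusted p was not computed. Isg15 was at 185, 68.2, 213, 40.2 and 94.6 CPM with PBS, at 104, 80.2, 63.2, 80.0 and 74.7 with mono-IL10, and at 23.7, 39.0, 86.8, 107 and 57.9 with IL10/2-Trikine. The groups overlapped, with 2 PBS mice above every treated mouse, and the log2 fold change of IL10/2-Trikine against PBS was -1.16 ± 0.48 (SE; edgeR adjusted p = 0.149).

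Other genes gave similar pictures in T cells. Bst2 was at 113 ± 14.0, 94.2 ± 14.8 and 79.1 ± 44.6 CPM with PBS, mono-IL10 and IL10/2-Trikine, Zbp1 at 74.2 ± 16.9, 74.1 ± 13.0 and 51.9 ± 16.7, Irf7 at 29.4 ± 17.3, 22.9 ± 6.76 and 19.6 ± 13.1, and Stat2 at 22.9 ± 21.5, 21.9 ± 9.82 and 9.76 ± 10.6 (SD, n = 5 each). Ifit3 gave 12 UMIs with PBS, 6 with mono-IL10 and 0 with IL10/2-Trikine, each from 5 mice.

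A few T cells carried much of the signal. The authors' annotation has a cluster named ISG+CD8T, so its high level of these genes is no finding, and it held 5 of 249 T cells with PBS, 6 of 446 with mono-IL10 and 1 of 181 with IL10/2-Trikine. Its 12 cells had a summed level of the 36 genes of 16105 CPM with PBS (95% Poisson interval 14107 to 18306), 6551 with mono-IL10 (5528 to 7708) and 5512 with IL10/2-Trikine (2848 to 9629), where the intervals cover counting error only. In the other annotated T clusters with at least 10 cells in a group, the sum lay between 544 and 1589 CPM. These 12 cells held 25% of the genes' UMIs in PBS T cells, 8.49% in mono-IL10 T cells and 3.31% in IL10/2-Trikine T cells. All 12 had an Isg15 UMI, and 8 had one of Ifit3, against 148 and 2 of the 864 other T cells. Without the cluster, the summed level in PBS T cells ran from 606 to 1024 CPM, against 653 to 859 with mono-IL10 and 553 to 812 with IL10/2-Trikine.

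In dendritic-like cells, 8 of the 36 genes passed the filter and 0 were called, at a background of 0.0286%, 0% and 0.0286% of 3499 genes called as higher in the 3 comparisons and 0% as lower. Under an unadjusted p of 0.05 with edgeR the count was also 0 in all 3, as it was by DESeq2. The class had 10 to 75 cells a mouse and carried 1987 to 2492 CPM of macrophage markers, 676 to 775 CPM of conventional dendritic markers and 2782 to 3337 CPM of mature dendritic markers. Isg15 was at 120 ± 32.8 CPM with PBS, 136 ± 115 with mono-IL10 and 81.6 ± 80.5 with IL10/2-Trikine, Bst2 at 141 ± 25.2, 128 ± 76.0 and 121 ± 30.7, and Stat2 at 43.1 ± 12.8, 51.0 ± 31.1 and 38.0 ± 17.1 (SD, n = 5 each). Irf7 was at 23.4 ± 16.6, 12.5 ± 10.1 and 8.02 ± 11.1 CPM, Zbp1 at 21.1 ± 6.04, 27.1 ± 20.5 and 16 ± 15.4, and Ifit3 at 3.06 ± 2.46, 6.96 ± 8.54 and 1.51 ± 3.38.

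IFIT transcripts were concentrated in few cells. Over the 3 libraries, 143 of 19764 macrophage-like cells (0.724%) held 5 or more UMIs of the 4 IFIT genes, and these 143 cells held 66.1% of all IFIT UMIs of the class. In tumor-like cells, 216 of 21749 (0.993%) held 49.7%. Such cells were found in all 15 mice in both classes. NK cells had 1 such cell, T cells 4 and dendritic-like cells 4.

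The other 32 genes were read in the cells chosen by their IFIT UMIs, as a description with no test. All 32 had a higher CPM in these cells than in the rest of their class, by a median of 12 times in macrophage-like cells and 6.98 times in tumor-like cells. Rsad2 was at 2019 CPM in the 143 macrophage-like cells and 20.7 CPM in the others, and Isg15 was at 1555 and 98.0 CPM. In tumor-like cells Isg15 was at 968 and 39.9 CPM. Bst2 (3.59 and 3.56 times in the 2 classes) and Irf9 (2.51 and 2.36 times) were raised less, and 60.7% of the macrophage-like UMIs of Cmpk2, a mitochondrial nucleotide kinase, came from the 143 cells.

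**Figure D5:**
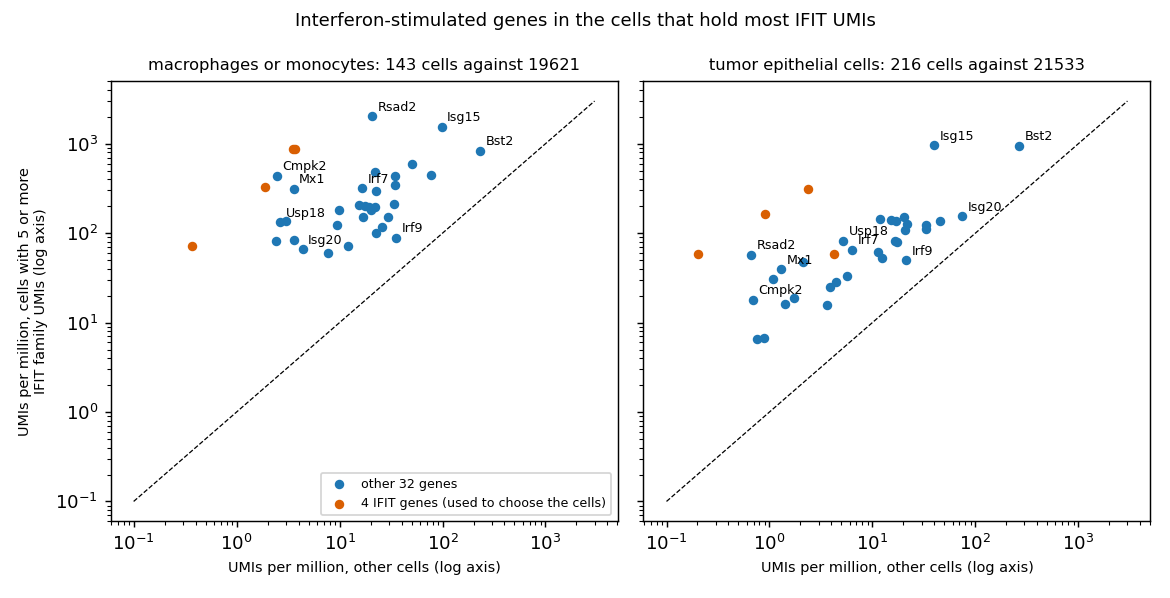
Level of each of the 36 genes (points, CPM, log axes) in cells with 5 or more IFIT family UMIs (vertical) against the other cells of the class (horizontal), for macrophages or monocytes and for tumor epithelial cells, with equality as the dashed line. The IFIT genes chose the cells. All points lie above the line, and Rsad2 reaches 2019 in the 143 macrophages or monocytes against 20.7 in the others.

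The share of cells with 5 or more IFIT UMIs, a cut-off not adjusted for the differing depth, overlapped between treatments. In macrophage-like cells it was 0.334% to 1.25% over the PBS mice, 0.351% to 1.18% over the mono-IL10 mice and 0.330% to 1.63% over the IL10/2-Trikine mice. In tumor-like cells it was 0.663% to 1.55%, 0.384% to 1.72% and 0.563% to 1.53%. Thinned to 2000 UMIs a cell, which left out 24, 19 and 119 shallower tumor-like cells, the share with 2 or more IFIT UMIs was 0.190% to 0.464% with PBS, 0.0968% to 0.557% with mono-IL10 and 0.379% to 1.31% with IL10/2-Trikine. In macrophage-like cells, with 349, 142 and 795 cells left out, it was 0.430% to 1.55%, 0.457% to 1.31% and 0.574% to 2.09%. The medians of the thinned share in tumor-like cells were 0.276%, 0.277% and 0.711%. There, IL10/2-Trikine mice 1, 3, 4 and 5 (0.605%, 1.31%, 0.794% and 0.711%) stood above every PBS and mono-IL10 mouse. Mouse 2 (0.379%) did not, and no test was made. NK cells, which had 1 cell with 5 IFIT UMIs or more, showed 0% in every mouse after thinning.

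One tumor-like cluster, formed without these genes, was led by Cxcl10, Iigp1, Cxcl9, Gbp2, Igtp and Cxcl11. Those genes are themselves induced by interferon and were not kept out of the clustering, so its high level is no independent finding. This cluster held 664 of the 21749 cells and a summed level of 2133 CPM, against 732 CPM in the other tumor-like cells. Isg15 was at 244 CPM in it and 45.4 CPM elsewhere. It made up 1.37% to 4.13% of the tumor-like cells of PBS mice, 0.155% to 8.07% of those of mono-IL10 mice and 2.19% to 5.54% of those of IL10/2-Trikine mice. Without it, 17 genes rose and 2 fell in tumor-like cells for IL10/2-Trikine against mono-IL10, of which 14 were among the 17 called with it. All genes called in this fit were counted without splitting them into those that rose and fell, and their shares are not given. Ifit3b (log2 fold change 1.19), Mx2 (0.85) and Cmpk2 (0.86) were not called without the cluster.

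Ligands of the pathway were rare. Ifnb1, the gene of interferon beta, gave 410 UMIs in 100 of the cells with a mouse, and 10 cells held 53.7% of them. The 14 interferon alpha genes gave 7 UMIs with PBS, 2 with mono-IL10 and 1 with IL10/2-Trikine. Of the cells with Ifnb1, 56 were macrophage-like, 5 tumor-like and 38 in no class. In macrophage-like cells the gene gave 58 UMIs in 30 of 8416 cells with PBS, 179 UMIs in 22 of 6150 cells with mono-IL10, of which 1 cell held 63, and 16 UMIs in 4 of 5198 cells with IL10/2-Trikine. Its level passed in no comparison (edgeR adjusted p = 0.11 for mono-IL10 against PBS). The 143 macrophage-like cells with many IFIT UMIs held 73.1% of the Ifnb1 UMIs of the class. Counted by cell, 29 of the 100 cells with Ifnb1, in or out of a class, held 5 or more IFIT UMIs.

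Of the receptor genes, Ifnar1 was at 96.2 ± 2.81 CPM in macrophage-like cells with IL10/2-Trikine, 106 ± 5.85 with mono-IL10 and 109 ± 6.53 with PBS, and it fell by 0.22 ± 0.07 (SE) on the log2 scale between the treatments (edgeR adjusted p = 0.039). Ifnar2 stood there at 143 ± 10.2, 177 ± 18 and 155 ± 16.1 CPM, a rise of 0.26 ± 0.09 with mono-IL10 against PBS (edgeR adjusted p = 0.027) and a fall of 0.38 ± 0.09 between the treatments (edgeR adjusted p = 0.0079). In tumor-like cells Ifnar2 was at 62.8 to 67.6 CPM with IL10/2-Trikine, 73.4 to 77.6 with mono-IL10 and 70.2 to 75.4 with PBS. The IL10/2-Trikine mice lay below all others, with a log2 fold change of -0.25 ± 0.04 (SE; edgeR adjusted p = 0.000119) against mono-IL10, and Ifnar2 rose by 0.15 ± 0.04 with mono-IL10 against PBS (edgeR adjusted p = 0.026). Tumor-like Ifnar1 (24.8 to 27.5 CPM in the group means) passed in no comparison. Ifnar1 ranged from 74.5 to 89.0 CPM in the group means of NK cells, 62.1 to 112 in T cells and 64.2 to 102 in dendritic-like cells, and Ifnar2 from 30.6 to 66.3, 66.1 to 88.5 and 81.7 to 93.5, with 0 calls in these 3 classes (NK Ifnar2 was under the filter).

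Of 93 other genes of the interferon pathway, 74 were tested in tumor-like cells, where 21 rose and 10 fell for IL10/2-Trikine against mono-IL10 (beside 15.9% and 16.8% of all genes), 8 rose and 5 fell for IL10/2-Trikine against PBS (10% and 12.1%), and 2 rose and 4 fell for mono-IL10 against PBS (3.29% and 2.03%). Among them Pml, the scaffold of nuclear bodies, rose from 11.8 ± 1.20 CPM with mono-IL10 to 15.5 ± 1.02 with IL10/2-Trikine (SD, n = 5 each), and Ms4a4c fell from 1.21 ± 0.357 CPM with PBS to 0.346 ± 0.134 with IL10/2-Trikine. In macrophage-like cells, 74 were tested: 11 rose and 17 fell with mono-IL10 against PBS (beside 13.1% and 14.9% of all genes), 10 and 8 with IL10/2-Trikine against PBS (9.15% and 8.97%), and 5 and 8 between the treatments (5.77% and 6.22%). The DNA-sensing adaptor Sting1 rose with mono-IL10 from 38.9 ± 2.19 to 60 ± 7.69 CPM, Socs3, a feedback inhibitor of cytokine receptors, from 317 ± 30.2 to 442 ± 22.4, and Stat3, the main transcription factor of interleukin-10, from 246 ± 20.2 to 322 ± 24.2 (SD, n = 5 each).

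In NK cells, 24 of the 93 were tested and 1 rose against PBS in both treated groups, beside 2.63% of all genes with IL10/2-Trikine and 0.34% with mono-IL10. That gene was Ly6a, the surface antigen Sca-1, which the paper also lists among core targets of the transcription factor STAT5. Ly6a was at 0 to 124 CPM in PBS mice, 233 to 402 in mono-IL10 mice and 330 to 570 in IL10/2-Trikine mice. Its log2 fold change was 3.13 ± 0.46 (SE) with IL10/2-Trikine (edgeR adjusted p = 0.00117) and 2.92 ± 0.46 with mono-IL10 (edgeR adjusted p = 0.0088). In T cells, 32 were tested and 5 fell with IL10/2-Trikine against each of the other groups, beside 4.08% of all genes against PBS and 6.71% against mono-IL10, among them Slfn2, which keeps T cells quiescent, at 267 ± 61.1 CPM with mono-IL10 and 109 ± 24.4 with IL10/2-Trikine, Ms4a4b at 603 ± 70.8 and 311 ± 99.4, and Ifi203 at 173 ± 49.6 and 94.4 ± 23.6 (SD, n = 5 each). Of these 32, 1 rose with mono-IL10 against PBS (beside 1.63% of all genes) and 1 between the treatments (6.11%). The T class was not made of the same clusters in each group: naive_CD8T held 31 of 249 cells with PBS, 121 of 446 with mono-IL10 and 2 of 181 with IL10/2-Trikine, naive_CD4T held 19 and 29 cells in the first 2 groups, and Cycling_T held 43, 99 and 94. The part of this in the T cell results was not tested. In dendritic-like cells 34 were tested and 0 were called by edgeR.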

How the data were processed

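The authors deposited UMI counts per gene and barcode from Cell Ranger (GRCm39, filtered barcodes), unnormalized, and a table of annotated T and NK cells with the UMI count and the percent of mitochondrial UMIs of each cell; they used Seurat 5.1.0 and DESeq2 1.46.0. It has 7858 further cells, from a group not analysed here.

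Barcodes were required to have 1000 genes or more and 10% mitochondrial UMIs or less. HTODemux (Seurat 5.3.0) assigned mice, called 8.64% to 13.3% of them doublets, which were dropped, and matched the authors' calls for 97.1% to 98.6% of annotated cells. It called 7376 of 34518 barcodes negative with PBS, 4160 of 24060 with mono-IL10 and 13903 of 46104 with IL10/2-Trikine. Cells with no mouse were dropped too. Of the annotated T and NK cells, 348 of 516, 635 of 843 and 400 of 725 had a mouse in the same order. Cells outside the annotation were clustered (k-means, 60 clusters, 40 components of 2000 variable genes, without the interferon genes) and named by fixed markers, with score cut-offs set after seeing the clusters. The mice are separate animals, but each group is 1 library, so p-values cover mouse-to-mouse spread only.

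UMIs were summed by mouse and class (at least 10 cells) and tested with edgeR 4.0.16 (TMM, filterByExpr, robust quasi-likelihood, all 3 groups in 1 fit) and limma 3.58.1. DESeq2 1.42.0, RLE factors, no filter, other cell selections and leaving out each mouse were alternatives. The tests were tested on simulated data. The genes named with values were Isg15, Ifit3, Irf7, Stat2, Bst2 and Zbp1 in every class and up to 10 called genes of smallest adjusted p a class; of the pathway list, up to 3 a class and the ligands and receptors. The other called genes are named without that rule. The genes and lists were chosen with earlier results of these data known.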

Additional observations from a re-analysis of the deposited data

Results flagged for a closer look

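Of 69 groups of mice tested for a single value far from the others, 1 had one, where chance gives about 1 in 20: Isg15 in the dendritic-like cells of PBS mouse 2 was at 176 CPM. The responses that differed between tumor-like and macrophage-like cells of the same mice by a test of the difference (limma, adjusted p under the threshold) were, as tumor-like minus macrophage-like log2 fold change, 0.99 for Isg15 with IL10/2-Trikine against PBS, and 0.79 for Oasl1, 0.65 for Isg20, 0.42 for Bst2 and -0.88 for Slfn5 with mono-IL10 against PBS. Between the treatments they were 1.32 for Rsad2 and -0.90 for Isg20. In that test, 5.11% of 11615 genes were called higher and 5.86% lower for IL10/2-Trikine against PBS. The shares were 8.09% and 7.86% for mono-IL10 against PBS, and 8.52% and 9.18% between the treatments. The counts among the interferon-stimulated genes were near or below these shares.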

How the results depend on the processing

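Counts of called genes were recomputed under other settings, for 220 values in all. Of these, 192 stayed within 1.5 times the reported count and 28 did not. A count of 0 that stayed 0 is among the 192, and changes of direction were not looked for. With RLE factors, or a prior count of 0.5 for the class difference, all counts of these genes stayed within that range.

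In NK cells between the treatments, Bst2 was the 1 gene called. The count of called genes was 0 with DESeq2, 2 with no filter and 0 without the cycling clusters. Leaving out 1 mouse gave 0 to 1. With no filter on low counts, IL10/2-Trikine against PBS gave 1 call in T cells, 1 in dendritic-like cells and 1 in macrophage-like cells, in place of 0, 0 and 2. In macrophage-like cells, DESeq2 gave 4 calls for IL10/2-Trikine against PBS, and the coarser clustering (40 clusters) gave 5 in place of 3 between the treatments.

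Leaving out 1 mouse gave 0 to 1 calls in T cells for IL10/2-Trikine against PBS (1 without PBS mouse 4). In macrophage-like cells it gave 0 to 4 for that comparison (0 without PBS mouse 2, 1 without any of PBS mice 1, 3 and 4 or IL10/2-Trikine mice 1 and 3, 4 without IL10/2-Trikine mouse 4 or 5), 6 to 12 for mono-IL10 against PBS and 2 to 4 between the treatments. In tumor-like cells it gave 3 to 9 for IL10/2-Trikine against PBS (3 without PBS mouse 2 or IL10/2-Trikine mouse 3 or 4, 4 without IL10/2-Trikine mouse 1), 2 to 3 for mono-IL10 against PBS and 11 to 23 between the treatments (11 without mono-IL10 mouse 3). Selections chosen after seeing the data, tumor-like cells without the Cxcl10 cluster and without macrophage marker UMIs, gave 10 and 7, 4 and 3, and 19 and 15 calls in the same order. The cause of these shifts was not tested. Over all genes tested, calls moved by over 1.5 times as follows. Without the cycling clusters, NK calls went from 120 to 78 (IL10/2-Trikine against PBS) and 81 to 35 (between the treatments), and T calls from 293 to 64, 82 to 23 and 409 to 91. In dendritic-like cells, 1, 0 and 1 calls became 13, 17 and 34 with DESeq2, 125, 30 and 102 with no filter, and 4, 15 and 2 with the coarser clustering. For mono-IL10 against PBS, NK calls went from 9 to 14 with DESeq2 and 51 with no filter, and tumor-like calls from 804 to 1269 with DESeq2 and 520 without macrophage marker UMIs. The NK class difference for IL10/2-Trikine against PBS went from 91 to 48 with the prior count of 0.5.

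No paired analysis was possible because a mouse number is a hashtag within its library and ties no mouse to another group. Few cells limit the NK, T and dendritic-like classes most, with 507, 876 and 460 cells against 19764 macrophage-like and 21749 tumor-like cells. In these 3 classes 34, 31 and 28 of the 36 genes were under the count filter.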
